A study of Mus musculus with 38 samples.

Results

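Constant promoter H3K27ac peaks are the peaks of uninduced mouse epidermal stem cells (EpdSCs) that lie at annotated gene starts and that were called again at every later time point of SOX9 induction. A peak of the D0 list was taken when it overlapped by at least 1 bp a peak in each of the W1, W2, W6 and W12 lists and when its nearest edge was at most 2500 bp from a start site. Of the 30268 H3K27ac peaks at D0, 6842 met this rule. The members were therefore chosen by measured values, namely by presence in all 5 H3K27ac lists, and everything below on their H3K27ac is a description with no test. Their H3K4me1 and their base sequence were not used by the rule. Gene starts were used through the distance limit. Nearness to genes, and contrasts with distal peaks that go with it, are therefore partly set by the rule.

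MINT-ChIP, in which barcoded chromatin of many samples is pulled down together, had been run on back skin cells of male K14rtTA; TRE-myc-Sox9 mice. In these animals the *Krt14* promoter, active in skin epithelium, drives the rtTA activator. Doxycycline (DOX), given from P21 except for the W12 grafts, switches on MYC-tagged SOX9, a transcription factor of hair follicle stem cells. Cells were CD49f-high, Ly6A-high and CD34-negative, and negative for CD31, CD45, CD117 and CD140a. They were taken without DOX (D0) and after 1, 2, 6 and 12 weeks of DOX (W1, W2, W6, W12), all carrying both transgenes. As the study gives it, the W12 cells came from neonatal skin grafted onto immunocompromised female *Nude* mice, and DOX was started once the grafts had healed. The labels of the W12 libraries also give replicate 1 of W2, which shares those libraries by barcode, and whether the W2 and W12 lists were fully separated could not be checked from the lists. Both skin marks have 12 samples each, and all replicates and both nuclease digests of a time point were merged into 1 list per mark, so that no list has a replicate and no spread between replicates could be set beside any difference. Graft, time on DOX and list depth cannot be told apart at W12. H3K4me1 of cultured cells (2 samples) came from other material. As the study gives it, these were primary *Krt14-rtTA* EpdSCs transduced with lentivirus and selected with puromycin. The virus carried DOX-inducible, MYC-tagged SOX9, either wild-type (WT) or lacking the HMG or the transactivation domain.

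Acetylation of histone H3 at lysine 27 is laid down by p300 and CBP and marks promoters and enhancers in use. Monomethylation of lysine 4 is written mainly by MLL3 and MLL4 and spreads over enhancers and over the shoulders of promoters, while the nucleosomes next to an active start site usually carry trimethylation of lysine 4 instead. Promoters with many CpG dinucleotides typically belong to broadly used genes, and enhancers to genes of one tissue.

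The start site sequence of 7 members shows how unlike each other constant promoters are, and each stretch holds the 200 bases before the start site, 5′ to 3′ on the gene's strand, from the RefSeq copy of GRCm38/mm10. *Smc3*, *Efcab2* and *Hcfc1* are shown because no H3K4me1 domain touched their peaks at any time point, *Oxsr1* for the high fold of its peak, *Mettl16* for the steadiness of its peak, and *Prss23* and *1600014C10Rik* because their peaks had among the largest mean falls. They lie at chr19:53600198-53600397 (*Smc3*, plus strand), chr1:178405903-178406102 (*Efcab2*, plus), chrX:73966358-73966557 (*Hcfc1*, minus), chr9:119322428-119322627 (*Oxsr1*, minus), chr11:74770630-74770829 (*Mettl16*, plus), chr7:89517587-89517786 (*Prss23*, minus) and chr7:38186071-38186270 (*1600014C10Rik*, plus). None of these stretches overlaps an annotated exon, and each lies wholly inside its D0 peak. Capitals mark matches, on either strand, to any of 12 short motifs that are spelled out further on.
Smc3: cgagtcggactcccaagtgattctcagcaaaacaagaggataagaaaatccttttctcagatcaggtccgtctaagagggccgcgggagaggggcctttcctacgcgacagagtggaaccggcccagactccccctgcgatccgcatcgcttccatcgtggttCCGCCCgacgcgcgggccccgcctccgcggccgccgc
Efcab2: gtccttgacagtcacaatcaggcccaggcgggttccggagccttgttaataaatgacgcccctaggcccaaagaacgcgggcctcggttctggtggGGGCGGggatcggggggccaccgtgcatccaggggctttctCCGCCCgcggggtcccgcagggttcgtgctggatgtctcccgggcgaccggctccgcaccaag
Hcfc1: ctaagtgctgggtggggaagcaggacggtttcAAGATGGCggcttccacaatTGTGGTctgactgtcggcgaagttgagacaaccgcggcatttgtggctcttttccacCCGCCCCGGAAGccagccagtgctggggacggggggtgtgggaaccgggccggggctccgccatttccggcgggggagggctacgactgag
Oxsr1: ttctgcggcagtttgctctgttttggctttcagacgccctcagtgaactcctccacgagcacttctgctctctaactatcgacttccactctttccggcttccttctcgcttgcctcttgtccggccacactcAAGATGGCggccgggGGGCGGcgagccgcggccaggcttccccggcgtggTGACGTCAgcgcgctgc
Mettl16: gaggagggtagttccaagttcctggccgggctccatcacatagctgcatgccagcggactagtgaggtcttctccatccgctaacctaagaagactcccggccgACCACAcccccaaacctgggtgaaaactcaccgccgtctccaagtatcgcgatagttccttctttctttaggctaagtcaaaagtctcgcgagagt
Prss23: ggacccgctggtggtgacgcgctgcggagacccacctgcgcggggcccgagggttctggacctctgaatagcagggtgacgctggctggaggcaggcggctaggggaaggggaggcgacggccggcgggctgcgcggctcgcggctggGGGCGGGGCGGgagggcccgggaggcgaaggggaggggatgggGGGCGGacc
1600014C10Rik: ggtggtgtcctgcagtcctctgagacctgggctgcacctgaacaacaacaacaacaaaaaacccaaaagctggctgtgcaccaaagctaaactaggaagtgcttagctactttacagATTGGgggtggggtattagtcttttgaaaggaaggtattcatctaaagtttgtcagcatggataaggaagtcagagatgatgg

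The *Smc3* stretch held 22 CpG dinucleotides and a single GC box, that of *Efcab2* held 18, and that of *Hcfc1* held 15 together with a YY1 site, a GC box, an ETS site and a RUNX motif. *Oxsr1* had 18 CpGs with a YY1 site, a GC box and a full CRE close to the start site. *Mettl16* had 11 CpGs and, on the other strand, a RUNX motif, and *Prss23* had 22 CpGs and GC boxes only. *1600014C10Rik* had no CpG in its 200 bases, a GC content of 45.5%, and a single CCAAT box on the other strand. A match says that the letters are there and nothing of a factor bound to them.

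Promoter peaks were retained more often than distal peaks, which are those over 2500 bp from any annotated start site, inside genes or between them. Of the 13019 D0 promoter peaks, 52.6% were constant (95% interval 51.7 to 53.4%, exact Clopper-Pearson, counting error only, as for all shares here), against 20.4% (19.8 to 21.05%) of the 17249 distal peaks, and against 34.3% of all D0 peaks. Promoter peaks thus made up 43.0% of the D0 list and 66.0% (65.1 to 66.9%) of the 10367 constant peaks. A D0 promoter peak was found again most often at W6, in 83.9% of cases, then at W2 (79.3%), W1 (77.6%) and W12 (61.4%). A total of 1998 promoter peaks (15.3%) were missing in the W12 list and in no other, while 432 were missing at W1 alone, 216 at W2 alone and 103 at W6 alone. The W12 list thus set the number of members more than any other did.

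Retention followed the strength of the D0 peak. Fold enrichment, the pileup of fragments over the local background as the authors' peak caller gave it, was split into 6 ranges. Below a fold of 5, only 9.27% of promoter peaks and 5.74% of distal peaks were constant. Between 7.5 and 10 the shares were 52.0% (49.8 to 54.3%) and 43.3% (41.0 to 45.6%), and at 25 or more they were 97.1% (96.1 to 98.0%) and 93.4% (88.5 to 96.6%). In each of the 6 ranges the promoter share was the higher, by at most 8.74 percentage points, against 32.1 points over all peaks. Promoter peaks were also stronger at D0, and the part of depth and fold in the retention of promoter peaks was not tested further.

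**Figure D1:**
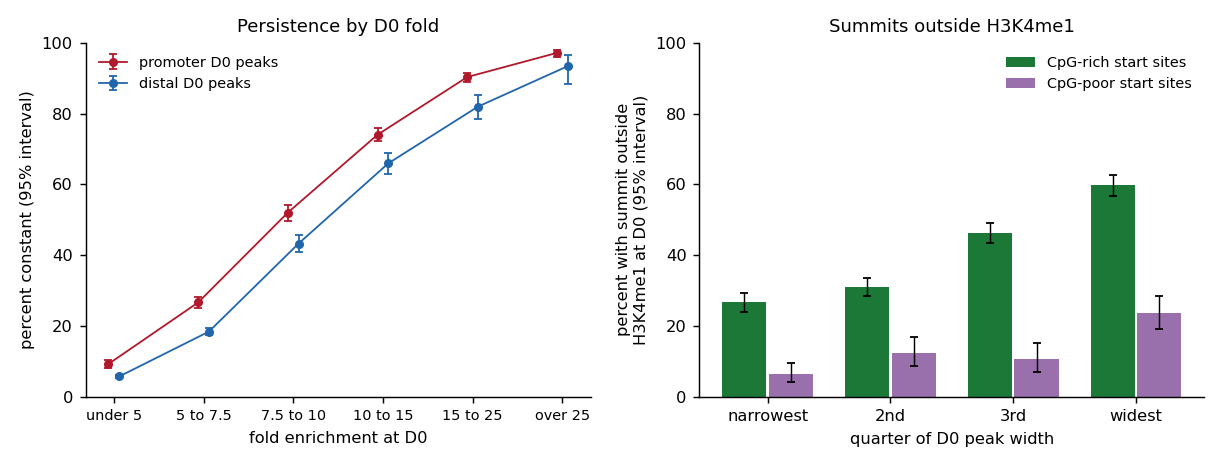
Left, percent of D0 H3K27ac peaks called again in all 4 later lists, by range of D0 fold enrichment, for promoter (red) and distal (blue) peaks. Right, percent of members with a protein-coding start site whose D0 summit lay outside every H3K4me1 domain, by 4 equal groups of D0 peak width, for CpG-rich (green) and CpG-poor (purple) start sites. Bars and points carry exact 95% intervals. Retention climbs from 9.27% to 97.1% for promoter peaks, and CpG-rich start sites have the higher share outside H3K4me1 in every group.

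Most members sat on the start of a protein-coding gene and reached into the transcribed side. A start site lay inside the peak for 79.0% of members, and the nearest gene was protein-coding for 5869 of them (85.8%). LincRNA genes came next with 248 members, then antisense genes with 231, unconfirmed transcripts (TEC) with 119, processed transcripts with 95 and miRNA genes with 72. At the protein-coding ones the D0 summit lay downstream of the start site in 73.8% (72.7 to 74.9%), at a median offset of 145 bp over all (139 to 151 bp). In 55.6% it fell 100 to 1000 bp downstream and in 18.9% 100 to 1000 bp upstream. Among the D0 promoter peaks that were not constant, 22.2% had their summit over 1000 bp from the start site, against 7.67% of members.

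A pair of divergent protein-coding genes, whose starts face away from each other within 1000 bp, shared 621 of the members (9.08%, 8.41 to 9.78%). Among the promoter peaks that were not constant, 139 did (2.25%, 1.895 to 2.65%). A peak counted when any of its bases met the pair. Members were the wider set, with a median of 1303.5 bp against 532 bp, and the part of width and position in this difference was not tested. Members over such a pair were wider, with a median of 1452 bp (1394 to 1521 bp) against 1280 bp (1258 to 1304 bp) for the other members, and stronger, with a D0 fold of 17.3 (16.0 to 17.99) against 14.0. Their fold also ranged somewhat less over the 5 time points, with a median range of 0.84 against 0.92 on the log2 scale.

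At D0 members were, in the median, taller and broader than the other classes of peaks. Their median fold was 14.0 (14.0 to 14.7) and their median width 1303.5 bp (1280 to 1322 bp), whereas constant distal peaks had a fold of 8.66 and a width of 1109 bp. Promoter peaks that were lost at some time point had a D0 fold of 5.998 and a width of 532 bp. Members, or the peaks overlapping them, were 22.5 to 23.8% of the peaks of each list and 33.5 to 38.8% of its bases.

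In raw fold the members were lower at W1 and W12 than at the other time points. Their median fold from D0 to W12 was 14.0, 8.47, 11.2, 14.3 and 8.50, always taking the strongest overlapping peak. The lists as a whole moved too, with medians of 5.998, 5.39, 6.32, 6.56 and 4.96 in the same order. The genome-wide background pileup, which scales with the number of fragments, was 0.501, 0.299, 0.425, 0.677 and 0.412. Ranked within its own list, the median member stood at percentiles 84.6, 82.5, 84.0, 86.2 and 83.7, so that its place among the peaks of a time point moved by under 4 percentile points. Constant distal peaks moved more, between percentiles 67.0 and 79.6.

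Member by member, the change of log2 fold from D0 had a median of -0.72, -0.43, -0.09 and -0.81 from W1 to W12, while for constant distal peaks it was -0.26, 0.07, -0.0019 and -0.23. Around that shared shift the members kept together. Within 2-fold of the median change were 89.5%, 89.4%, 88.6% and 85.4% of members, against 79.8 to 83.3% of distal peaks. After centring each time point on its median, the range of a member's log2 fold over the 5 time points had a median of 0.91, and that of a constant distal peak 1.02. Across members, log2 folds of D0 and later lists had Pearson's r of 0.67, 0.66, 0.65 and 0.58 (n = 6842 peaks, which share their pooled libraries). Across the 3525 distal peaks the same 4 values were 0.45, 0.37, 0.42 and 0.45. Distal peaks had a lower D0 fold, 8.66 against 14.0 in the median, and its part in these differences was not tested.

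A core of members was high throughout. At all 5 time points, 4882 members (71.4%) stood above the median of their list, 2444 (35.7%) in its top 25% and 821 (12%) in its top 10%, while 12 stayed below the median at every time. Members that began low rose, and members that began high fell, relative to the median. The D0 fold enters both the grouping and the change, so that a slope of this direction is built into the measure. Members with a D0 fold under 5 had a centred change between 1.15 and 1.26 on the log2 scale at the 4 later times, and those with a D0 fold of 25 or more between -0.59 and -0.46. The largest rises and falls named below, and the changes of each gene list, stand on this slope, and no part of them was separated from it.

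Median width fell and rose at the same steps as median fold. From W1 to W12 it was 1229, 1450.5, 1514 and 865 bp, while that of constant distal peaks was 1244, 1581, 1291 and 863 bp, so that members were not the wider of the pair at W1 and W2 and both were about equal at W12. At W6, 65.7% of members were wider than at D0, and at W12 74.96% were narrower. The W12 list was the narrowest as a whole, with a median of 476 bp against 635 bp at D0, and at W12 27.7% of members had under 50% of their D0 bases inside a peak, against 4.27% at W6. Where a D0 peak met more than 1 later peak, as 11.8% did at W12, only the strongest one was counted, and the summed widths at W12 had a median of 939 bp.

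**Figure D2:**
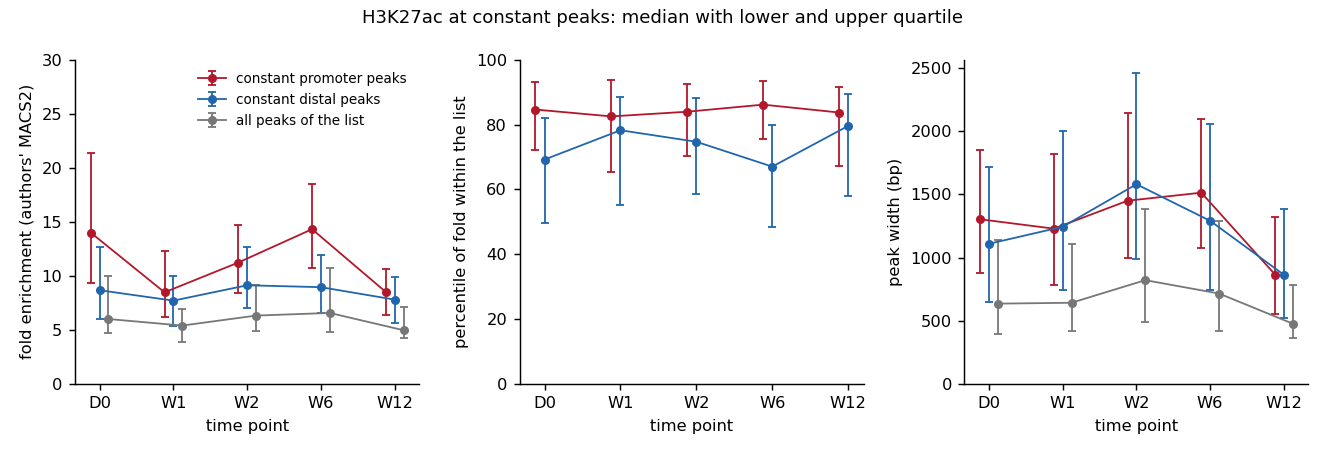
Median with lower and upper quartile of fold enrichment (left), percentile of fold within the list (middle) and peak width in bp (right) at the 5 time points, for constant promoter peaks (red, n = 6842), constant distal peaks (blue, n = 3525) and, in the outer panels, all peaks of the list (grey). Folds of members are lowest at W1 and W12, with medians of 8.47 and 8.50, while their median percentile stays between 82.5 and 86.2.

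The 5 strongest members at D0 were at *Cops5*, *Tmed5*, *Oxsr1*, *Iws1* and *Ddx54*. *Cops5*, the catalytic subunit of the COP9 signalosome, had folds of 94.6, 35.4, 42.1, 36.4 and 29.8 from D0 to W12. *Tmed5*, a cargo receptor of the early secretory pathway, had 94.0, 33.1, 33.7, 39.4 and 24.8, and *Oxsr1*, a kinase that regulates ion cotransporters, had 84.0, 20.02, 33.0, 32.8 and 23.4. *Iws1*, a factor of transcription elongation, had 79.97 at D0 and 24.1 at W12, and the RNA helicase gene *Ddx54* had 79.3 and 31.2. All 5 fell by more than the members' shared shift at each later time. Of the 5 peaks 3 also covered the start of a neighbour gene, *Cspp1* beside *Cops5*, *Ccdc18* beside *Tmed5* and *Rita1* beside *Ddx54*.

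The widest members were loci rather than single promoters. At *Gata3*, a transcription factor of epidermal identity, a peak at chr2:9864820-9884812 covered 19993 bp together with the antisense gene *Gm13256* and had folds of 25.3, 18.5, 18.2, 23.9 and 12.8. Around *Neat1*, the RNA scaffold of paraspeckles, a peak at chr19:5834079-5850334 covered 16256 bp with folds of 62.0, 29.3, 31.6, 47.1 and 26.2. *Sik1*, a salt-inducible kinase, had a peak of 15516 bp at D0 whose strongest overlapping peak was 5470 bp at W1 and 586 bp at W12, with folds that went from 40.7 to 13.9, 11.2, 14.3 and 9.21. *Sdc4*, the cell surface proteoglycan syndecan-4, had a peak of 13152 bp at D0 and 15294 bp at W6, which was 1036 bp at W12. The *Gata3* peak thus stayed broad at W12, with 11049 bp, where those of *Sik1* and *Sdc4* did not.

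The widest member of all was of another kind. It spanned 38371 bp at chr9:3000018-3038388, over a block of predicted genes around *Gm10717*, and 96.2% of its bases were repeat-masked. No other member exceeded 90% masked bases, and the median was 7.79%. No H3K4me1 domain touched it at any time, its folds were 13.0, 4.75, 14.2, 10.97 and 22.2, and reads in such copies cannot be placed with certainty.

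The members with the largest mean rise all began as weak D0 peaks. *Gm37737*, an unconfirmed transcript, had folds of 3.33, 12.3, 19.6, 17.3 and 15.6 from D0 to W12. The peak 405 bp from the start of *Rbm5*, an RNA-binding splicing regulator, had 3.998, 15.4, 19.6, 33.4 and 12.04. A peak near *Gm43863*, within 2500 bp of the start of *Hnrnpf*, a gene of RNA processing, had 3.33, 13.1, 22.5, 19.7 and 7.08. At *Irx3os* and *Irx3*, the latter a homeobox transcription factor, the folds were 4.66, 17.7, 26.0, 22.7 and 10.6. At *Hoxb5os*, an antisense gene in the Hoxb cluster, they were 3.998, 15.4, 16.8, 18.5 and 11.3, while the overlapping peak grew from 456 bp at D0 to 24679 bp at W2. In all 5 the D0 fold was the lowest of the series. Their D0 peaks were 270 to 456 bp wide, and the strongest peaks overlapping them at W1 were 2022 to 19232 bp wide. Except at *Gm37737*, the nearest start site lay outside the D0 peak, 156 to 2404 bp away. The later folds are thus those of wider peaks, and the change over the D0 bases alone was not measured.

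The members with the largest mean fall began high. *Prss23*, a serine protease gene, had folds of 28.0, 6.93, 4.91, 4.17 and 5.67, and its peak narrowed from 2668 bp at D0 to 294 bp at W6. *Mir8120* had 34.7, 6.93, 4.91, 11.9 and 8.50. The predicted gene *1600014C10Rik* had 26.0, 8.47, 8.04, 3.53 and 4.91, with a width of 5078 bp at D0 and 336 bp at W12. The peak shared by *Rabl3* and *Gtf2e1*, the latter a subunit of the general factor TFIIE, had 65.3, 8.47, 23.2, 19.7 and 12.8, and the lincRNA gene *Gm34590* had 23.3, 5.39, 4.91, 7.75 and 4.96. *Prss23* and *1600014C10Rik* stayed wholly inside H3K4me1 at all 5 time points, although their H3K27ac had shrunk to narrow peaks.

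The steadiest members above the median D0 fold stayed close to the members' own median change at every time point. *Mettl16*, an RNA methyltransferase, had folds of 14.7, 8.47, 11.2, 15.5 and 8.50, a centred range of 0.12 on the log2 scale. *Syvn1*, a ubiquitin ligase of the endoplasmic reticulum, had 28.0, 16.2, 22.5, 27.4 and 17.7. *Atp5mpl*, of the mitochondrial ATP synthase, *Ptrh2*, a mitochondrial peptidyl-tRNA hydrolase, and *Tut7*, an RNA uridylyltransferase, had ranges of 0.13, 0.14 and 0.14. Folds come in steps of 1 fragment of pileup, so that ranges this small are at the limit of what the lists resolve.

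**Figure D3:**
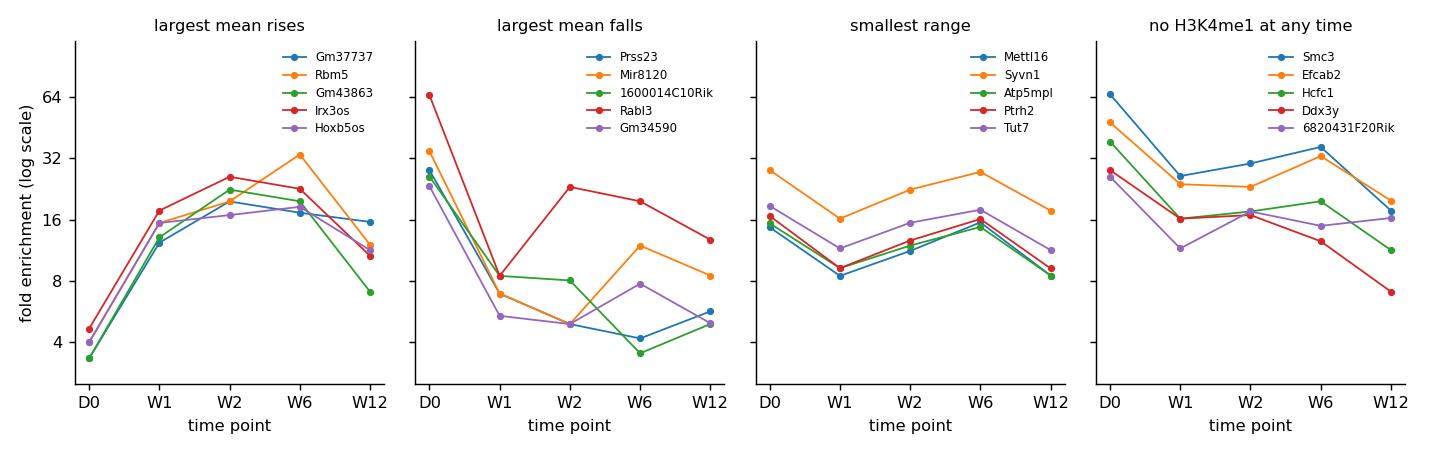
Fold enrichment (log scale) at D0, W1, W2, W6 and W12 for the 5 members with the largest mean rise, the largest mean fall, the smallest range above the median D0 fold, and the 5 strongest without H3K4me1 at any time. Each line is 1 D0 peak with the strongest peak overlapping it at each later time, in pooled lists. Rises begin between 3.33 and 4.66 and falls between 23.3 and 65.3 at D0.

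H3K4me1, which the rule did not use, touched nearly all members but avoided many of their summits. At D0, 95.5% of members (94.97 to 96.0%) overlapped an H3K4me1 domain by at least 1 bp, against 95.9% of all D0 peaks. Over the 4 later lists the shares were 93.1%, 94.9%, 96.0% and 91.4%. At all 5 time points 85.3% overlapped a domain, and 66 members (0.965%) did so at none. By this measure members resembled the rest of the list, and constant distal peaks overlapped a domain in 99.1 to 99.4% at each time.

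The summits differed more between the sets. In 33.5% of members (32.4 to 34.6%) the D0 summit lay outside every H3K4me1 domain of D0, against 12.6% of all D0 peaks, 15.6% (14.7 to 16.5%) of promoter peaks that were not constant and 1.33% (0.981 to 1.77%) of constant distal peaks. Members were wider and stronger than the promoter peaks that were not constant, and their summits lay nearer to the start site. The part of these traits in the difference was not tested, and among the narrowest members (269 to 881 bp) the share was 20.98%. From W1 to W12 the share was 31.9%, 21.05%, 25.6% and 40.2%, and for constant distal peaks it was between 1.16 and 1.82% at every time. In 684 members (9.997%) the summit was outside at all 5 time points. At D0, 57.6% of members were wholly inside H3K4me1, at W2 69.6% and at W12 51.4%. A member touched 2 or more domains in 18.5% of cases at D0, against 0.397% of constant distal peaks. The fall at W2 and the high at W12 have no replicate check, and the part of differences between the H3K4me1 lists in them was not tested.

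The uncovered summits sat in a gap with H3K4me1 on its shoulders. Of the 2064 members at protein-coding start sites whose summit was outside at D0, 82.1% (80.3 to 83.7%) had a domain within 2000 bp on both sides, 12.5% on the downstream side only and 3.54% on the upstream side only. The gap between the flanking domains was 1200 bp wide in the median, with quartiles of 800 and 1400 bp, in lists whose domains come in bins of 200 bp. At W6 both sides were present in 76.0% and the downstream side alone in 17.8%. At W1, W2 and W12 both sides were present in 60.8%, 55.3% and 58.8% of such summits and the downstream side alone in 28.7%, 33.3% and 31.3%. Where a shoulder was absent, it was thus mostly the upstream one.

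The average over start sites drew the same picture. Over the 5660 protein-coding start sites at members, the share inside an H3K27ac peak was highest 200 bp downstream at D0, with 91.5%, and 200 bp downstream at W12, with 76.4%. The share inside an H3K4me1 domain was 59.5% at the start site at D0 and 90.9% at 1400 bp downstream. At the start site it was 61.6%, 74.7%, 69.0% and 52.4% from W1 to W12, while the downstream crest stayed between 88.0 and 91.0%. At the summits of constant distal peaks 98.7% were inside H3K4me1 at D0, with no dip.

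**Figure D4:**
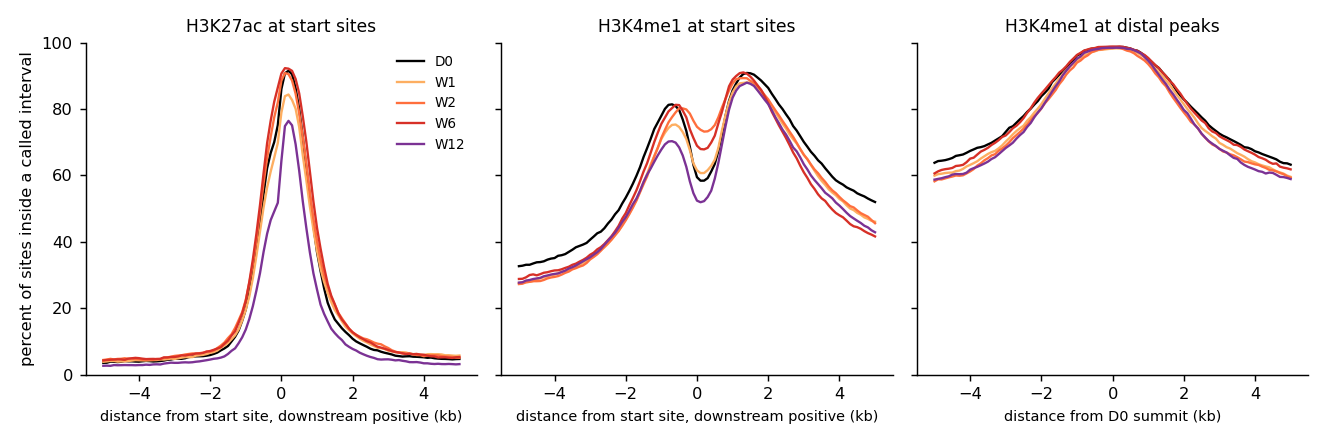
Percent of sites inside a called interval, by distance in kb, for H3K27ac (left) and H3K4me1 (middle) around 5660 protein-coding start sites at members, and for H3K4me1 around 3525 summits of constant distal peaks (right), 1 line per time point. H3K4me1 dips at the start site, to 52.4% at W12 and 74.7% at W2, between 2 shoulders, and has no dip at distal summits.

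Peak width and CpG content went along with the gap. When members were split by width into 4 equal groups, the summit was outside H3K4me1 at D0 in 20.98%, 26.6%, 38.4% and 48.0% from the narrowest to the widest, although overlap with any domain rose as well, from 91.2 to 99.0%. Start sites were called CpG-rich when the 500 bp to each side had over 50% GC and an observed to expected CpG ratio over 0.6. At CpG-rich start sites the summit was outside in 40.8% (39.4 to 42.3%), at CpG-poor ones in 13.5% (11.6 to 15.6%). Within the 4 width groups the pairs were 26.6% and 6.47%, 31.0% and 12.4%, 46.3% and 10.6%, and 59.8% and 23.7%. CpG-rich and CpG-poor members differed little in width, with medians of 1308 and 1249 bp, and in D0 fold, with 15.3 and 12.7.

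Members on the X chromosome had far less H3K4me1 than those on autosomes. Of the 117 members on X, 60.7% (51.2 to 69.6%) overlapped a domain at D0, against 96.1% (95.6 to 96.6%) of the 6722 autosomal ones, and 70.9% (61.8 to 79.0%) had their summit outside, against 32.8% (31.7 to 34.0%). The whole D0 list differed in the same direction, with 67.1% (62.4 to 71.6%) over a domain on X and 96.4% on autosomes, and with the summit outside in 49.3% and 12.02%. None of the 3 members on Y overlapped a domain at any time. The D0 H3K4me1 list as a whole covered 3.18% of X and 12.4% of the autosomes, and the H3K27ac list 0.199% and 1.09%. Male cells carry a single X, and the part of copy number in this difference was not tested. Promoter peaks on X were constant in 41.6% (35.8 to 47.6%), and on the single autosomes in 48.0 to 60.9%.

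Of the 66 members without H3K4me1 at any time, 23 were on X, 3 on Y and 40 on autosomes. The strongest was *Smc3*, a core subunit of cohesin, whose peak at chr19:53599976-53601149 had folds of 66.0, 26.2, 30.2, 36.4 and 17.7. *Efcab2* had 48.0, 23.9, 23.2, 32.8 and 19.8. *Hcfc1* on X, a cofactor that brings chromatin enzymes to promoters, had 38.7, 16.2, 17.5, 19.7 and 11.3, and *Ddx3y*, an RNA helicase gene on Y, had 28.0, 16.2, 16.8, 12.5 and 7.08. The pseudogene *6820431F20Rik* had 26.0 at D0 and 16.3 at W12. The 66 were not weak peaks, with a median D0 fold of 12.8 and a width of 987 bp.

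Few members gained or lost H3K4me1 as a whole. In 18 members a domain was present at D0 and at no later time, and in 45 it was present at every later time and not at D0. These are 0.263% and 0.658% of members, and among all D0 peaks the shares were 0.539% and 0.363%. The strongest of the former were *Gm10060*, *Avl9*, *Gm10037* and, on X, *Rlim* and *Chm*. *Rlim*, a ubiquitin ligase known from X inactivation, had 4.71% of its D0 peak covered, and *Chm*, which encodes a Rab escort protein, 100%. The strongest of the latter were *Ctnnd1*, which encodes p120-catenin of the adherens junction, *Mta2* of the NuRD complex, *Fgfr1op2*, *Srp9* of the signal recognition particle and *Prpf8* of the spliceosome. *Ctnnd1* had folds of 32.7, 20.8, 22.5, 39.4 and 14.2, and H3K4me1 covered 24.0%, 100%, 32.5% and 15.4% of its D0 peak from W1 to W12. The covered part of *Mta2* went from 100% at W1 to 20.9% at W2, so that these cases include domains that only brushed the peak.

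In cultured EpdSCs, H3K4me1 domains overlapped fewer members. With WT SOX9 and DOX 61.1% of members (59.9 to 62.3%) met a domain, without DOX 55.4% (54.3 to 56.6%), with the variant lacking the DNA-binding HMG domain 46.0% (44.8 to 47.1%) and with that lacking the transactivation domain 48.0% (46.8 to 49.1%). The same lists met 62.7%, 62.1%, 57.5% and 58.2% of all D0 peaks and 86.6%, 84.3%, 83.0% and 83.5% of constant distal peaks. The share of members with WT SOX9 and DOX was thus near that of the whole D0 list, and the 4 shares lay further apart at members than at either other set. The culture lists have another layout than the skin lists and hold 1 list a condition, and the part of their length was not tested.

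Members were the CpG-rich end of the promoters. Of their 5660 distinct protein-coding start sites 79.2% (78.1 to 80.3%) were CpG-rich, against 65.1% (63.7 to 66.6%) at promoter peaks that were not constant, 45.2% (44.8 to 45.7%) of all 41493 protein-coding start sites and 16.6% (16.0 to 17.1%) at genes with no promoter peak in any list. Around the D0 summits themselves 69.1% of members were CpG-rich and 2.98% of constant distal peaks.

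Motifs of GC-rich letters were more frequent at members and most motifs of AT-rich letters less so. From 250 bp before to 50 bp after the start site, both strands searched, the GC box GGGCGG was found in 67.5% of members' start sites and in 45.4% of all, and the ETS letters CCGGAAG in 20.9% and 11.2%. The YY1 letters AAGATGGC were found in 5.97% and 3.31%, the CRE letters TGACGTCA in 4.52% and 2.28%, the NRF1 letters GCATGCGC in 5.78% and 3.49%, and the E box CACGTG in 10.7% and 7.55%. CCAAT was about as frequent in members (35.4%) as in all (36.8%). TATAAA was found in 5.64% and 11.8%, the GATA letters AGATAA in 5.21% and 9.71%, the RUNX letters TGTGGT in 10.6% and 14.7%, and the SOX letters ACAAAG in 12.2% and 16.6%. The AP1 letters TGANTCA were in 5.64% and 6.55%.

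Most of these differences were shared with promoter peaks that were not constant. Among those the GC box was at 65.2% (63.8 to 66.7%) and ACAAAG at 13.1% (12.1 to 14.2%), next to 67.5% (66.3 to 68.7%) and 12.2% (11.4 to 13.1%) in members. The ETS letters, at 15.2% (14.1 to 16.3%) against 20.9% (19.8 to 22.0%), the YY1 letters, at 3.92% (3.35 to 4.55%) against 5.97% (5.37 to 6.62%), and the CRE letters, at 2.78% (2.30 to 3.32%) against 4.52% (3.996 to 5.10%), had intervals apart. Within 150 bp of the summit, members held the AP1 letters in 5.22% and the SOX letters in 14.8%, and constant distal peaks in 11.8% and 24.2%. GC content differs between these sets, and its part in the shares was not tested.

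A constant promoter peak lay within 2500 bp of a start of 6714 of the 21938 protein-coding genes (30.6%), which is 66.6% of the 10087 genes with any D0 promoter peak. The gene lists below are set beside the 30.6%, which takes in genes with no D0 promoter peak. A list can therefore lie above 30.6% because its genes had D0 promoter peaks, and for lists where most genes had one the 66.6% is the closer comparison. In 565 of them 2 or more members did so. Of noncoding classes, 394 of 5854 lincRNA genes (6.73%), 478 of 2959 antisense genes (16.2%) and 97 of 190 genes of lncRNAs from bidirectional promoters (51.1%) had one. A peak counts for every gene that starts within the limit, so that neighbours can share a member, as 940 members near 2 protein-coding genes and 59 near 3 or more did.

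Genes for protein synthesis, energy and protein quality control were mostly members. Of 78 ribosomal protein genes 72 had a constant promoter peak (92.3%), led by *Rpl19* with folds of 64.0, 33.9, 40.0, 42.9 and 19.8 and by *Rpl27* with 56.0, 38.5, 28.8, 35.2 and 18.4. Of the 6 without, *Rpl22*, *Rps9*, *Rps10* and *Fau* lacked a promoter peak only at W12. All 7 CCT chaperonin genes found in the annotation were members, with *Cct5* at 51.3, 21.6, 30.2, 31.0 and 22.0, while 1 further listed symbol was not found there. The proteasome had 26 of 31, led by *Psmb7* with 38.7 at D0, and the respiratory chain and ATP synthase 60 of 74, led by *Ndufs1* with 46.6. Over all protein-coding genes the share was 30.6%. A D0 promoter peak was present at all ribosomal protein, CCT and proteasome genes listed and at 71 of the 74 of the respiratory chain list. Of the 25 genes of these 4 lists that had no member, 16 had a promoter peak in all lists but W12.

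Chromatin and transcription machinery was present as well. The SWI/SNF remodelling complex had 20 of 22 genes (90.9%, 70.8 to 98.9%), against 30.6% of all protein-coding genes, and all 22 had a D0 promoter peak. Its ATPase *Smarca4* had folds of 25.3, 9.24, 11.2, 16.1 and 7.08. Of 14 genes of MLL complexes and histone acetylation 10 had a member (71.4%, 41.9 to 91.6%). All 14 had a D0 promoter peak, and the interval includes the share given above for all genes with such a peak. *Ep300*, which encodes the acetylase p300, had 22.0, 16.9, 18.9, 28.0 and 12.8. *Kmt2d* and *Kmt2c*, which encode the monomethylases MLL4 and MLL3, had 19.3 and 22.7 at D0, and H3K4me1 covered 0% of the D0 peak of the former and 23.9% of the latter. *Crebbp*, *Wdr5* and *Dpy30* lacked a promoter peak at W12 alone. RNA polymerase II had 7 of 12 subunit genes (58.3%, 27.7 to 84.8%), an interval that includes 30.6%, although all 12 had a D0 promoter peak. The large subunit *Polr2a* had folds of 23.3, 11.6, 19.6, 19.7 and 12.8.

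Epidermal identity genes kept their promoter peaks, and those peaks were broad. Of 19 epidermal transcription factor genes 18 had a member (94.7%, 74.0 to 99.9%), against 30.6% of all protein-coding genes, and all 19 had a D0 promoter peak. The exception was *Ovol2*, which lacked a peak at W1 and W12. *Trp63*, the master regulator of stratified epithelium, had folds of 19.99, 12.3, 15.4, 16.1 and 9.21, and *Tfap2a* had 32.0, 23.9, 22.5, 29.2 and 12.04. Of 28 genes for basal keratins and adhesion 25 had one (89.3%, 71.8 to 97.7%), and 26 had a D0 promoter peak. *Col17a1*, a hemidesmosome collagen, had 66.6, 23.1, 26.7, 18.5 and 16.3, and *Krt14* had 44.6, 14.6, 22.5, 22.7 and 15.6. A *Krt14* promoter also drives the activator transgene, and its part in this peak was not tested. The median D0 width was 4147.5 bp for the transcription factor list and 3872 bp for the basal list, against 1303.5 bp over all members. The list widths take only the strongest member of each gene, and stronger members were wider in general, so that the measures are not alike. From W1 to W12, 19, 20, 21 and 19 of the 25 basal genes lay below the members' median change, with D0 folds whose median was 30.7, in the range where members in general fell. Of the 18 transcription factor genes 7, 12, 14 and 12 did so, with a median D0 fold of 21.3.

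AP1 genes, which respond to stress and growth signals, had 10 members of 12 (83.3%, 51.6 to 97.9%), against 30.6% of all protein-coding genes. A D0 promoter peak was present at 11 of the 12. *Atf4* had folds of 76.0, 26.2, 38.6, 41.7 and 26.9, *Fosl2* 55.3, 24.6, 23.2, 29.2 and 20.5, and *Junb* 52.0, 20.02, 18.2, 23.3 and 15.6 in a D0 peak of 12325 bp. *Atf3* had promoter peaks in all 5 lists but no D0 peak that met each later one, and *Batf3* had none. The list lay below the members' median change in 9, 9, 9 and 8 of its 10 genes from W1 to W12, again from a high median D0 fold of 36.3.

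Genes of the differentiated layers and of the hair follicle had members in shares whose intervals both include the 30.6% of all protein-coding genes. A D0 promoter peak was present at 13 of the 26 suprabasal and at 15 of the 27 hair follicle stem cell genes. Of 26 suprabasal genes 5 had one (19.2%, 6.55 to 39.4%), namely *Dmkn*, *Krt10*, *Krtdap*, *Sbsn* and *Casp14*. *Krt10*, a keratin of the spinous layer, had folds of 13.3, 6.93, 4.91, 9.54 and 4.96, and the cornified envelope gene *Lor* lacked a peak at W12. Of 27 hair follicle stem cell genes 11 had one (40.7%, 22.4 to 61.2%). *Vdr*, the vitamin D receptor, had 26.0, 23.9, 17.5, 32.8 and 12.04, and *Runx1* had 16.7, 13.9, 18.2, 17.9 and 9.92. The median D0 fold of the 11 was 11.995, and 10, 8, 9 and 10 of them lay at or above the members' median change from W1 to W12. *Lhx2*, *Tcf7l1*, *Tbx1* and *Cd34* had a promoter peak at W2 alone.

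The endogenous *Sox9* gene itself was a member. Its D0 peak of 3183 bp had folds of 14.7, 28.5, 24.6, 25.6 and 9.92 from D0 to W12, and lay wholly inside H3K4me1 at D0. The transgene carries the *Sox9* coding sequence, and the part of its reads in this peak was not tested. It was above its D0 value at W1, W2 and W6, where the members' median change was negative.

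Of 19 hedgehog pathway genes, the signal behind basal cell carcinoma, 7 had a member (36.8%, 16.3 to 61.6%), an interval that includes the 30.6% of all protein-coding genes. A D0 promoter peak was present at 11 of the 19. *Sufu*, an inhibitor of the pathway, had folds of 30.7, 18.5, 22.5, 25.6 and 7.79, the receptor gene *Ptch1* had 11.3, 7.70, 7.02, 11.9 and 4.25 with no H3K4me1 over its peak at D0, and the pathway's transcription factor *Gli1* had 3.998, 6.93, 10.5, 11.3 and 4.96. *Smo* had promoter peaks in all 5 lists without a constant one, *Gli2* had none at D0 and W12, and the ligand gene *Shh* had none in any list. *Gli1* thus began as a weak peak, and its highest raw fold came at W6, where the list as a whole had its highest median fold (6.56). Relative to the members' median change, which was -0.43 at W2 and -0.09 at W6, *Gli1* was higher at W2.

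Of 40 cell cycle genes 16 had a member (40.0%, 24.9 to 56.7%), which likewise includes 30.6%, and 29 of the 40 had a D0 promoter peak. *Myc* had folds of 38.7, 22.3, 25.3, 25.05 and 16.3, and the inhibitor gene *Cdkn1a* had 32.7, 11.6, 11.9, 16.1 and 12.04. The replication gene *Pcna* had 14.0, 7.70, 11.2, 19.7 and 6.38 and the mitotic kinase gene *Aurka* 13.3, 10.8, 11.9, 25.05 and 5.67, both highest at W6. *Ccnb2*, *Mcm2*, *E2f1*, *Bub1* and *Ccne1* had a promoter peak at W6 alone. The W6 list had the highest background pileup, 0.677 against 0.299 at W1 to 0.501 at D0. The part of depth in these W6 peaks and folds was not tested. Of 67 histone genes 21 had a member (31.3%, 20.6 to 43.8%), a share near that of all protein-coding genes, several of them sharing 1 peak within a cluster of near-identical copies, which reads may not tell apart. Of 394 Zfp zinc finger genes 155 did (39.3%, 34.5 to 44.4%), which is above 30.6%. In that list 268 genes (68.0%) had a D0 promoter peak. Of those a smaller share kept a constant peak than of all protein-coding genes with a D0 promoter peak.

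**Figure D5:**
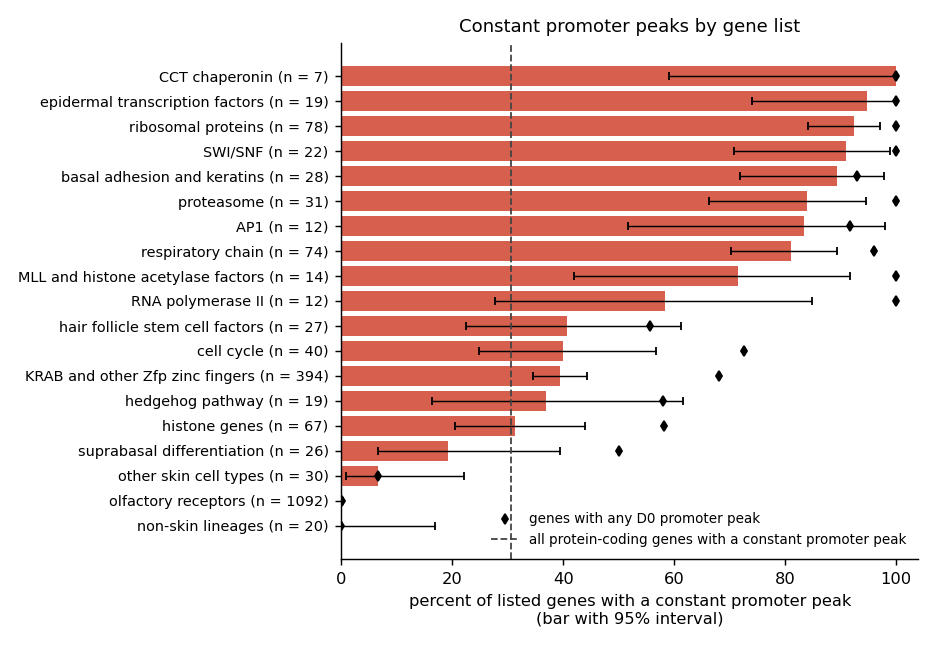
Percent of the genes of each list with a constant promoter peak (bars, with exact 95% intervals), percent with any D0 promoter peak (diamonds), and the 30.6% of all protein-coding genes with a constant promoter peak (dashed line). Ribosomal, chaperonin, SWI/SNF and epidermal lists lie above 90%, and no olfactory receptor or gene of a non-skin lineage has one.

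The genes of the members matched the sorted cell type with few exceptions. All 6 keratinocyte markers (*Krt5*, *Krt14*, *Trp63*, *Itga6*, *Itgb4* and *Col17a1*) had a member. None of the 20 genes of non-skin lineages did, which allows a share of up to 16.8%, and none of 1092 olfactory receptor genes did, which allows up to 0.337%. Of 30 genes of other skin cells 2 had one (6.67%, 0.818 to 22.1%), against 30.6% of all protein-coding genes. Only these 2 of the 30 had a D0 promoter peak at all, so that the low share is one of D0 promoter peaks in general and not of constancy. *Pmel*, a melanosome gene, had folds of 13.3, 10.01, 8.42, 13.7 and 7.08, in a peak that also counted for its neighbour *Cdk2*, a cell cycle kinase gene. *Pecam1*, which encodes the CD31 on which cells were negatively sorted, had 5.33, 5.39, 5.61, 10.7 and 14.9 in a D0 peak of 373 bp at chr11:106713485-106713857, 1402 bp from the start site. Of the other endothelial genes *Kdr* had a promoter peak in no list, *Tek* at W1 alone and *Cdh5* at W12 alone. In all, 21 of the 30 genes had none in any list, among them *Ptprc*, *Pdgfra* and *Sox10*, and *Cd207* and *Dcn* had one at W12 alone. The part of other cells in the W12 list was not tested.

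The distance limit cut through similar peaks. Just inside it were peaks 2491 bp from *Strn3*, with folds of 5.33, 3.85, 7.72, 5.96 and 7.08, and 2496 bp from *Crocc2*, with 5.998, 13.9, 8.42, 5.37 and 4.96. Just outside were peaks 2503 bp from *Gm20554*, with 5.998, 3.85, 8.42, 7.75 and 7.08, and 2504 bp from *Gm43266*, with 5.998, 5.39, 6.26, 7.16 and 7.79. All 4 lay wholly inside H3K4me1 at every time point, as distal peaks did.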

How the data were processed

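H3K4me1 and H3K27ac MINT-ChIP of sorted EpdSCs were analysed from the deposited interval lists. As the study and the submitters' processing notes give it, the authors trimmed reads with Skewer, aligned them to GRCm38/mm10 with Bowtie2 (2.2.9), removed duplicates with Picard, merged replicates with SAMtools (1.9), called H3K27ac with MACS2 (2.1.1) and skin H3K4me1 with epic2. Caller settings are not given in the sources used here, and how the culture lists, which have the layout of MACS2 broad peaks, were called is unclear. The deposited H3K27ac and culture lists hold a whole-number score, a fold enrichment (ratio) and the −log10 of p and q, and the deposited H3K4me1 lists of skin a p-value per domain. Barcode files and total H3 were not used here.

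Groups came from the labels. Start sites (77163 positions of 55413 genes) came from the basic set of GENCODE M21. At later times a member took the value of the strongest overlapping peak. Log2 changes were centred on the members' median per time point. Shares carry exact 95% Clopper-Pearson intervals and medians 95% order-statistic intervals, which cover counting error only, and since the lists pool replicates no test between time points was made. For 5 members per rule the text names the highest D0 folds, the widest, the largest mean rises and falls of one sign at all 4 later times, the smallest ranges above the median D0 fold, and the strongest without H3K4me1 or with it only at D0 or only later. It also names the peaks nearest the 2500 bp limit and, per gene list, the members with the highest D0 fold and genes without one, together with further listed genes chosen after their values were seen. The members, gene lists, motifs and rules were chosen with earlier results of these data known. Depth enters through the genome-wide background pileup, read from the steps of fold over pileup. The functions for overlap and distance were tested on simulated data. Python 3.11.15, pandas 2.3.3, numpy 2.4.6, scipy 1.17.1, pysam 0.24.0 and matplotlib 3.10.9 were used. Alternatives changed the overlap, score, list length, distance, annotation, joining, chromosomes and measure of height.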

Additional observations from a re-analysis of the deposited data

How the results depend on the processing

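No paired analysis was possible because each list pools its replicates, and for the same reason no replicate could be left out. Of 79 values under alternatives, 47 stayed within their interval or, for counts, within 1.5 times the count. The values in percentile points could not stay by this rule, being on another scale than log2 fold, and the limit for counts was a wide fixed choice. The 47 is therefore partly set by the rule and is no measure of robustness.

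With 50% of the shorter interval as the least overlap, there were 68.4% of constant peaks at promoters, a median width of 1343.5 bp, a ratio of promoter to distal D0 fold of 1.57 (1.62 in the report's setting) and 67.2% of members over H3K4me1, in place of 95.5%, since domains that only touch a peak then no longer count. Keeping only intervals with a score above their list's median gave 4513 members, 77.1% at promoters, a width of 1509 bp, a ratio of 1.42, 88.7% over H3K4me1 and 43.7% with the summit outside. Joining intervals less than 1000 bp apart gave 67.6%, 1501 bp, 97.1% over H3K4me1 and 26.2% outside. A promoter limit of 1000 bp gave 62.2% at promoters and 35.3% outside, and one of 10000 bp gave 79.0%, 1277 bp, 96.1% over H3K4me1 and 28.3% outside. Distance from the summit gave 64.4% at promoters. Protein-coding start sites alone gave 60.7% and 35.6% outside. Without X and Y 96.1% were over H3K4me1. Leaving out the W12 list, an alternative chosen after seeing the data, gave 8840 members, 62.8% at promoters, 1157 bp, 94.96% over H3K4me1 and 30.5% outside. In each of these settings that gave the share, the summits of more than 26% of members lay outside H3K4me1. As percentile within the list rather than log2 fold, the median change from D0 was -0.85 points at W1, -1.41 at W2 and -1.88 at W12, and 0.346 points at W6, where it turned from a fall of the fold (-0.09) to a rise in rank. Lists of equal length gave 6731 members. Lists of equal length, pileup over the genome-wide background and the peak with the largest overlap moved no value out of its interval.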
